A study of Rattus norvegicus with 7 samples.

Results

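The posterior subcapsular lens was the 12-week-old lens of the Ihara Cataract Rat (strain ICR/Ihr), a hereditary model in which opacity appears in different lens regions as the animal ages. It was 1 of 7 arrays, and it was compared with the 4 arrays of the other opaque lenses, those labelled cortical opacity (8 and 10 weeks) and nuclear opacity (14 and 18 weeks). The 2 lenses labelled no cataracts (2 and 4 weeks) are given as a background and did not set the comparison. Every lens was untreated, of the same strain and, by the study's methods, from male animals of the breeding colony, and no array of another strain was analysed here. Whole-lens total RNA was measured on expression arrays, and each age had a single array. Whether an array held 1 lens or a pool is not given in the sources used here, and age and opacity stage cannot be told apart, since the posterior subcapsular stage was a single age. The labels state that each lens was taken out of culture medium before it was ground.

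The lens is a capsule around a single front layer of epithelial cells and a mass of fibre cells that lose their nuclei as they mature. Cortical opacity lies in the outer fibres, nuclear opacity in the oldest central fibres, and posterior subcapsular opacity in front of the rear capsule, where there is normally no epithelium. Only the epithelium and the young outer fibres keep nuclei, so messenger RNA of whole lens comes mostly from these cells, and fewer cells of a type and less RNA per cell cannot be told apart in such samples. Most of the genes farthest above the range at 12 weeks belong to the immediate early response. Immediate early genes are switched on within minutes of a stimulus such as a growth factor, calcium entry or stress, without new protein synthesis, through transcription factors that are already present, and most of their messages decay quickly.

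For each gene the 12-week log2 signal was set against the highest and the lowest of the 4 other opaque lenses. A gene was called above the range when its 12-week signal exceeded all 4, and below it when it was under all 4. The distance is the log2 gap to the nearest of the 4. Of 18166 named genes, 5168 reached a log2 signal of 5 on at least 1 array and were tested, and 1859 of them lay outside the range. The 12-week lens was above the range for 323 genes (6.25% of those tested) and below it for 1536 (29.7%), and it lay inside the range for 3309 (64.0%). Most of these gaps were small, with a median distance of 0.08 for the genes above and -0.12 for the genes below. Only 8 genes (0.155%) were above the range by 1.5-fold or more, which is 0.585 on the log2 scale, and 17 (0.329%) were below it by as much.

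The 12-week array had the lowest median signal of the 7, 5.71 against 5.73 to 5.85 on the 4 other opaque arrays, and the median difference of all tested genes (12 weeks minus the mean of the 4) was -0.07. The excess of genes below the range moved with that scale. After quantile normalization 868 genes (16.8%) were above the range and 1135 (22.0%) below, and after median centring 1059 (20.5%) were above and 1005 (19.4%) below. The genes beyond 1.5-fold numbered 11 above and 15 below after quantile normalization, and 9 above and 6 below after median centring. All 8 genes above by 1.5-fold stayed above by that margin under both scalings, whereas 14 of the 16 genes below that were still tested did so after quantile normalization and 6 of 17 after median centring.

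With a single 12-week array the spread within that stage is not known. An exact permutation test of 1 array against 4 cannot give a two-sided p below 0.2. The limma fit, which borrowed the spread of the other 3 stages and compared the 12-week lens with the mean of the cortical and nuclear stage means, passed 0 genes in either direction at an adjusted p of 0.05, and its smallest adjusted p was 0.179. At an unadjusted p under 0.05 it held 40 genes higher (0.774%) and 336 lower (6.5%). The values that follow are therefore a description of these 5 lenses, and the adjusted p-values are those of limma over all 5168 genes.

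**Figure D1:**
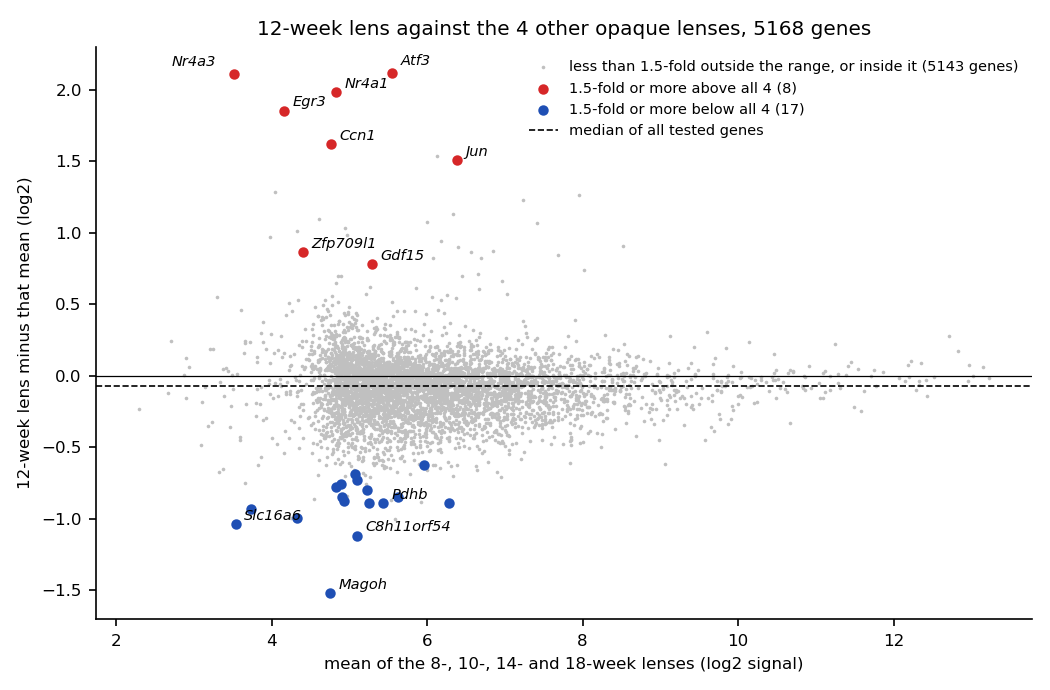
Each point is 1 of 5168 tested genes, with the mean log2 signal of the 8-, 10-, 14- and 18-week lenses on the horizontal axis and the 12-week signal minus that mean on the vertical axis. The 8 genes above the range by 1.5-fold or more are red, the 17 below it by as much are blue, and the dashed line is the median difference of all genes, -0.07.

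The genes that stood highest above the range were mostly transcription factors of the immediate early class: Nr4a3, Egr3, Atf3, Nr4a1 and Jun, with the secreted proteins Ccn1 and Gdf15 and the zinc finger gene Zfp709l1. Many immediate early genes are known to be controlled through cAMP response elements bound by the calcium- and cAMP-activated factor CREB. Promoters were therefore searched for that element as a description, and whether it acted in these lenses was not tested. Of the 8 genes, 4 had an entry in the RefSeq promoter table (assembly GRCr8, 250 bases before to 50 after the annotated start, gene strand), and these were Nr4a1, Ccn1, Zfp709l1 and Gdf15. The stretches below end at the base before the start. They are shown for Nr4a1 and Ccn1, and for Ier2 and Ccnl1, which are not among the 8 (distances 0.33 and 0.46). Ier2 and Ccnl1 were picked because they hold the full element TGACGTCA. Not shown are Zfp709l1, with 1 copy of the shorter core TGACG, and Gdf15, with 0 copies. Capitals mark TGACGTCA or TGACG, read as CGTCA where it lies on the other strand.
Nr4a1, chr7:134259888-134260137, plus strand: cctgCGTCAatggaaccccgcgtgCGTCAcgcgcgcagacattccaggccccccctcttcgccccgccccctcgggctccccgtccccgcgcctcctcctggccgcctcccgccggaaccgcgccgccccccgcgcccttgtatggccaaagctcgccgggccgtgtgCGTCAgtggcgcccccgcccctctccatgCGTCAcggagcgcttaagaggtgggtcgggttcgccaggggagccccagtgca
Ccn1, chr2:237225690-237225809, minus strand: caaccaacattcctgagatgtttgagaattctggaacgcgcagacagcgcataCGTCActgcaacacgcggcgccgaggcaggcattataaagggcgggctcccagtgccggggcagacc
Ier2, chr19:40399253-40399372, plus strand: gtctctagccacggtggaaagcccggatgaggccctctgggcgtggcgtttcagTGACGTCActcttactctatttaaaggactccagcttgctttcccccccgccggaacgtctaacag
Ccnl1, chr2:152507469-152507588, minus strand: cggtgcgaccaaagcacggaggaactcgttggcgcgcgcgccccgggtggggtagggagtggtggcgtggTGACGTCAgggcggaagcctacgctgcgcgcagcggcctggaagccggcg

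The Nr4a1 stretch held 4 copies of the shorter core, all on the other strand, with leftmost bases at positions -246, -226, -82 and -53 from the start. Ccn1 held 1, at -67. The full element began at -66 in Ier2 and at -50 in Ccnl1. In the 300-base window, searched on both strands, TGACG was present in 3 of the 4 genes with an entry (75%), against 35.1% of the 4339 tested genes with an entry and 22.0% of all 27457 promoters of the table. These 4 genes were picked by their 12-week values, and over all genes above the range TGACG was in 97 of 266 with an entry (36.5%), close to the share in all tested genes and to the 36.4% in all genes below the range. It was present in 5 of the 14 genes with an entry among those below the range by 1.5-fold (35.7%). The full TGACGTCA, which contains the shorter core, was in 0 of the 4 genes above by 1.5-fold with an entry and in 3.64% of the tested genes. None of the 4 had the AP-1 element TGANTCA (4.75% of tested genes), a CArG box, the site of serum response factor (1.18%), or the E-box CACGTG (10.2%), and 1 had the NFAT core GGAAA (56.9%). These are matches of letters in a fixed window and not measured binding sites.

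Nr4a3 and Egr3 had the largest log2 distances in the deposited values. Nr4a3, an orphan nuclear receptor, was at 3.03, 3.56, 3.84 and 3.63 at 8, 10, 14 and 18 weeks and at 5.62 at 12 weeks. The lenses without cataracts were at 2.95 and 3.35, so the 12-week lens stood alone and the other 6 arrays spanned 0.88. The distance was 1.79 and the difference from the mean of the 4 was 2.11 ± 0.25 (SE, limma, adjusted p = 0.509). Egr3, a zinc finger factor of the early growth response family, was at 3.99, 4.13, 4.16 and 4.34 at the 4 other opaque ages and at 6.01 at 12 weeks, with 3.34 and 4.01 in the lenses without cataracts. The distance was 1.67 and the difference from the mean 1.85 ± 0.26 (adjusted p = 0.509). Both genes reached a signal of 5 on the 12-week array alone, so they were tested because they were high there. Their signals on the other 6 arrays were under that filter level and were not shown to lie above background, so the size of these distances is uncertain and no fold is given.

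Atf3, Nr4a1, Jun and Ccn1 reached a signal of 5 on further arrays, and the 14-week lens was the second highest for each. Atf3, a stress-induced partner of the AP-1 factors, was at 5.74, 4.05, 6.59 and 5.82 at 8, 10, 14 and 18 weeks and at 7.66 at 12 weeks, with 4.44 and 4.54 in the lenses without cataracts. The other opaque lenses were themselves spread over 2.54 log2 units, and the 12-week difference from their mean was 2.12 ± 0.64 (adjusted p = 0.624). Nr4a1, a close relative of Nr4a3, was at 3.91 and 3.94 in the cortical lenses, 6.80 at 12 weeks, and 5.91 and 5.54 in the nuclear lenses. The cortical lenses were at or below the level of the lenses without cataracts (4.12 and 4.14), and the nuclear lenses lay between these and the 12-week lens. Its difference from the mean was 1.98 ± 0.16 (SE, limma). This SE rests on the spread within stages and leaves out the gap between the cortical and nuclear lenses. The 4 other opaque lenses spanned 2.00 for this gene.

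Jun, the core AP-1 subunit, was at 6.55, 5.12, 7.01 and 6.85 at the other opaque ages and at 7.89 at 12 weeks, with 5.94 and 6.44 in the lenses without cataracts. A second probe cluster of Jun gave the same order at the top, 6.49 at 12 weeks against 4.89 to 5.66 in the 4 others. Ccn1, a secreted matrix-associated protein formerly called Cyr61, was at 4.85, 3.87, 5.49 and 4.85 and at 6.38 at 12 weeks, with 4.36 and 4.44 in the lenses without cataracts. For Jun, Ccn1 and Atf3 the 10-week lens was the lowest of all 7, so the 2 arrays labelled cortical opacity differed from each other by 0.97 to 1.70. The 12-week differences from the mean were 1.51 ± 0.53 for Jun (adjusted p = 0.665) and 1.62 ± 0.41 for Ccn1 (adjusted p = 0.600).

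Gdf15, a stress-induced cytokine of the TGF-beta superfamily, was just inside the threshold. It was at 5.46, 5.03, 5.45 and 5.22 at 8, 10, 14 and 18 weeks and at 6.07 at 12 weeks, a distance of 0.61, and the lenses without cataracts were lower, at 4.63 and 3.96. Zfp709l1, a zinc finger gene, was at 5.27 at 12 weeks and between 4.19 and 4.45 on the other 6 arrays, where 4 arrays had the identical value of 4.45. Like Nr4a3 and Egr3, it reached a signal of 5 on the 12-week array alone, so the size of its distance is uncertain too. All 8 genes were at least 1.5-fold above both lenses without cataracts as well. The 8 were picked by their 12-week values, which limma uses too, so its p-values for them are no separate support.

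**Figure D2:**
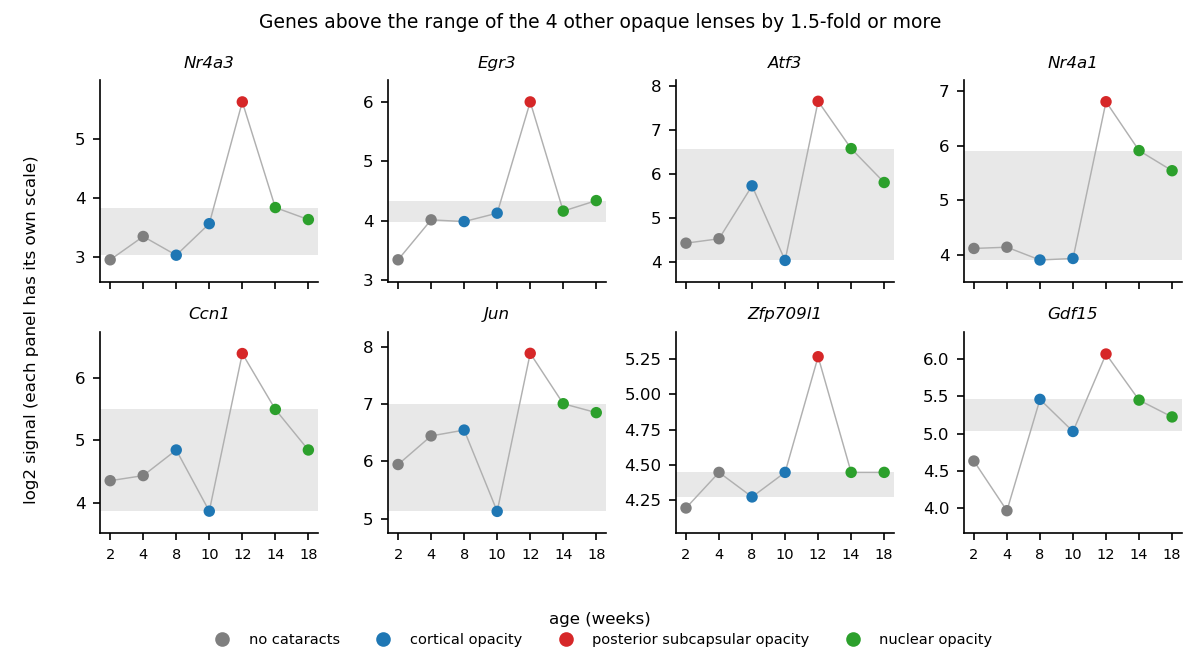
Log2 signal (vertical axis, scaled per panel) of the 8 genes above the range by 1.5-fold or more at each age in weeks (horizontal axis), 1 array per point, coloured by the labelled stage, with the range of the 4 other opaque lenses in grey. The 12-week point lies above the grey band in every panel, and the 14-week point alone sets its upper edge for 5 of the 8 genes.

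The 14-week lens set the upper edge of the range for these 5 genes, and without it the distances were larger. Atf3 was then 1.85 above the nearest lens, Ccn1 1.54 and Nr4a1 1.26. Without the 14-week lens 25 genes were above the range by 1.5-fold, against 8 with it, and without any other lens the number was 8 to 10. For Nr4a3 the 14-week lens was also the nearest, but the 18- and 10-week lenses were within 0.27 of it.

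The next genes were close to the threshold. Txnip, which binds and inhibits thioredoxin, was just outside it, at 5.70 at 12 weeks against 3.97 to 5.13 in the other opaque lenses, a distance of 0.57. Id1, an inhibitor of basic helix-loop-helix factors and a target of BMP signalling, was at 7.37 against 6.50 to 6.89. Ccnl1, cyclin L1, which acts in RNA splicing, was at 7.07 against 5.33 to 6.62. These 3 genes were above both lenses without cataracts too, although Id1 at 2 weeks was at 6.92.

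Fos, the AP-1 partner of Jun, had a 12-week signal of 9.22. The 8-, 10-, 14- and 18-week signals were 8.25, 6.42, 8.83 and 8.32, a distance of 0.39, and the lenses without cataracts were at 6.19 and 7.18. The p53-induced Tp53inp1 (distance 0.38) and the transcription factor Sp9 (0.36) had narrow ranges elsewhere. Tp53inp1 reached a signal of 5 on the 12-week array alone, so it was tested because it was high there and the size of its distance is uncertain. Rps26l6, a copy of a ribosomal protein gene, was above the 4 others by 0.47 but not above the 4-week lens (5.32 against 5.53), and its probes may share signal with near-identical copies.

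The immediate early transcription factors were then counted as a whole, including members too dim to test. Earlier results of these data had already put these genes apart in the 12-week lens. The counts therefore describe the list and do not test it, and the same holds for the other immediate early and the calcineurin lists below. Of 25 named on the array, 15 were above the range at 12 weeks (60%) and 1, Nr4a2, was below it, against 18.0% above and 18.5% below among all 18166 named genes. By 1.5-fold or more 5 members were above and 0 below, against 0.897% above and 0.413% below among all named genes. The median difference from the mean of the 4 was 0.45 over the 25 members, against -0.01 over all named genes. Among the 15 members that were tested, 10 were above (66.7%) and 0 below, against 6.25% and 29.7% of all tested genes. The median difference of the 15 was 1.04, and 2 of those 10 had passed the filter through the 12-week array alone. The counts of 10 and 0 were the same after quantile normalization and after median centring. Of all tested genes 16.8% were above and 22.0% below after quantile normalization, and 20.5% above and 19.4% below after median centring.

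Fosb, Ier2, Klf6 and Jund completed the tested members above the range, with Fos. Ier2 was at 5.98 at 12 weeks against 4.39 to 5.66, and Fosb was at 5.58 against 4.30 to 5.30. The difference of Ier2 from the mean of the 4 was 1.04 ± 0.23, an SE that leaves out the gap between cortical and nuclear lenses. Klf6 and Jund exceeded the highest of the 4 by only 0.04 and 0.11. The dim members Csrnp1, Egr2, Egr4, Maff and Ier5 were also above the range, but none reached a signal of 5 on any array.

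Not every early gene was highest at 12 weeks. Egr1, which is used as the textbook marker of the class, was at 8.47 at 12 weeks and 8.64 at 14 weeks, with 6.99, 5.77 and 7.55 at 8, 10 and 18 weeks. Ier3 (7.52 against 7.77 at 14 weeks) and Junb (6.15 against 6.44) were likewise inside the range, below the 14-week lens. Klf4 stood apart, at 4.97 at 12 weeks and 6.21 at 14 weeks, and Klf2 was highest at 8 weeks.

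Over the 25 members the 5 opaque lenses fell in a recurring order. The 12-week lens was the highest for 15, the 14-week lens for 8, the 8- and 10-week lenses for 1 each and the 18-week lens for 0. The 10-week lens was the lowest for 15 and the 8-week lens for 9. The 14-week signal exceeded the 18-week signal in 23 of 25, and the 12-week signal exceeded the 14-week signal in 16. The median of the 15 tested members was 5.48, 4.39, 6.80, 6.44 and 5.81 at 8, 10, 12, 14 and 18 weeks, against 4.65 and 4.68 at 2 and 4 weeks. The median was thus lowest at 10 weeks, under the lenses without cataracts, highest at 12 weeks and intermediate at 14 and 18 weeks.

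**Figure D3:**
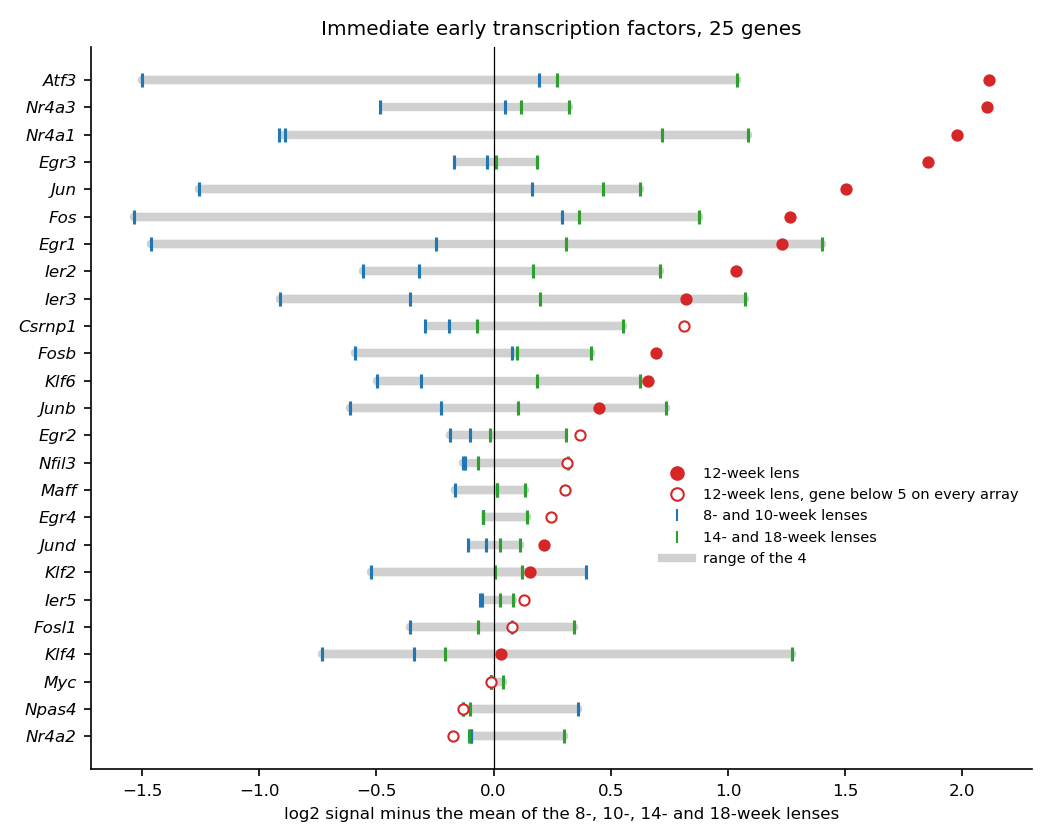
The 25 immediate early transcription factors, with the log2 signal of each lens minus the mean of the 8-, 10-, 14- and 18-week lenses on the horizontal axis. Red circles are the 12-week lens (open where the gene stayed below 5 on every array), blue and green ticks the cortical and nuclear lenses, and grey bars their range, which 15 of the 25 red circles exceed.

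Other immediate early genes, those that code for signalling inhibitors and secreted proteins, were counted separately. Of 32 named, 9 were above (28.1%) and 4 below (12.5%), against 18.0% and 18.5% of all named genes. Among the 18 tested 5 were above (27.8%) and 1 below (5.56%), against 6.25% and 29.7% of all tested genes, with a median difference of 0.30. Besides Ccn1 these were Gadd45g, a stress-sensor protein (7.46 at 12 weeks against 5.09 to 7.23), Rcan1, the phosphatase Dusp1 and the kinase Pim1. The distances of Dusp1 and Pim1 were only 0.05 and 0.04. Whether this share differs from that of the transcription factors was not tested.

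Among the feedback inhibitors of cytokine and inflammatory signalling, Socs3 and Zfp36 were highest in the 14-week lens. Socs3, which blocks JAK-STAT signalling, was at 7.11 at 12 weeks and 7.72 at 14 weeks, and Zfp36, which destabilises AU-rich messages, was at 7.29 and 8.07. Nfkbia, the NF-kappaB inhibitor, was below the range at 12 weeks (4.50 against 4.65 to 5.23). The connective tissue growth factor Ccn2, related to Ccn1, was inside the range (6.70 at 12 weeks, 7.36 at 18 weeks).

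Several early genes are targets of calcineurin, the calcium-dependent phosphatase that activates NFAT transcription factors. Of 16 genes of the calcineurin and NFAT list, 6 were above the range (37.5%) and 3 below (18.8%), against 18.0% and 18.5% of all named genes, and the median difference was 0.01. The genes above were the targets Nr4a3, Egr3, Nr4a1, Rcan1 and the dim Egr2, with the dim calcineurin subunit gene Ppp3cc. All of these targets were already counted in the immediate early lists, so this share is not separate from those counts. Rcan1, a calcineurin inhibitor and NFAT target, was at 5.36 and 5.61 in the cortical lenses, 6.90 at 12 weeks, and 6.66 and 6.68 in the nuclear lenses. It separated the 2 cortical lenses from the later 3, and its 12-week value exceeded the higher of the nuclear ones by 0.22. The difference of Rcan1 from the mean of the 4 was 0.82 ± 0.17 (SE, limma). This SE leaves out the gap between the cortical and nuclear lenses, and the 4 spanned 1.32 for this gene. Genes of the enzyme itself were divided. The catalytic subunit genes Ppp3cc (4.96 against 4.57 to 4.79, dim) and Ppp3cb (6.44 against 6.53 to 6.63) were above and below the range, and Ppp3ca and Ppp3r1 were inside it. The factor Nfatc3 was below (5.34 against 5.41 to 5.71).

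Among 24 cytokines and chemokines 6 were above the range (25%), against 18.0% of all named genes, and 1 was below (4.17%, against 18.5%), and most members were dim. Of the 6 tested, Gdf15 and the monocyte chemoattractant Ccl2 were above. Ccl2, chosen after its values were seen, was at 5.69, 4.50, 7.39 and 6.91 at 8, 10, 14 and 18 weeks and at 7.66 at 12 weeks, with 3.41 and 6.001 in the lenses without cataracts. It followed the order of the early genes, but its distance was 0.26. Cxcl1 and Cxcl10 were highest at 14 weeks, and Il6, Il1b and Tnf stayed below 4 on every array.

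The 17 genes below the range by 1.5-fold or more came from varied cell functions, and they are described by their known roles. C8h11orf54 had the widest gap. It was at 5.17, 5.07, 5.07 and 5.07 at 8, 10, 14 and 18 weeks, 5.14 and 5.07 in the lenses without cataracts, and 3.98 at 12 weeks. The other 6 arrays lay within 0.10, and the difference from the mean of the 4 was -1.12 ± 0.10 (limma, adjusted p = 0.179). Pdhb, the beta subunit of the pyruvate dehydrogenase E1 enzyme that feeds the citric acid cycle, was at 4.54 at 12 weeks and at 5.38 to 5.58 elsewhere (difference -0.89 ± 0.13, adjusted p = 0.509). Its value was identical, 5.38, on the 4-, 10-, 14- and 18-week arrays.

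Several of the others act on RNA or chromatin. Magoh, a core component of the exon junction complex on spliced messages, was at 5.80, 4.57, 3.90 and 4.74 at 8, 10, 14 and 18 weeks and at 3.23 at 12 weeks. Its difference from the mean was the widest of the 17, -1.52 ± 0.54 (adjusted p = 0.665), but the 4 other opaque lenses spread over 1.90. Ints14, a subunit of the Integrator complex that processes small nuclear RNA, was at 4.37 against 5.08 to 5.11, so the 4 others lay within 0.02 of each other. Rbbp4, a histone-binding protein of several chromatin complexes, was at 5.39 against 6.09 to 6.50, Tasor, of the silencing complex HUSH, was at 4.04 against 4.64 to 5.10, and Zfp131, a zinc finger protein, was at 4.05 against 4.64 to 5.18.

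The enzymes of nucleotides and DNA synthesis were Tyms, Pole4 and Nudt5. Tyms, thymidylate synthase, was at 3.32 at 12 weeks against 3.98 to 4.64, and at 5.09 and 4.49 in the lenses without cataracts. Pole4, an accessory subunit of DNA polymerase epsilon, was at 4.14 against 4.75 to 4.96. Nudt5, which hydrolyses ADP-ribose, was at 4.36 against 5.03 to 5.49, and each of these 3 genes was also below both lenses without cataracts.

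Genes of transport, membranes and the cytoskeleton made up most of the rest. Igf2r, the receptor that carries mannose 6-phosphate enzymes to lysosomes and clears IGF2, was at 6.79 and 6.33 in the lenses without cataracts, 5.81 and 5.38 in the cortical lenses, 4.77 at 12 weeks, and 5.59 and 5.69 in the nuclear lenses. It was thus lower in every opaque lens than in the lenses without cataracts, and lowest at 12 weeks. Slc16a6, a monocarboxylate transporter family member (2.49 at 12 weeks against 3.37 to 3.63), and Evi2a, a membrane protein gene (2.80 against 3.39 to 4.44), had that course too and were under a signal of 5 in all 5 opaque lenses. They passed the filter through the lenses without cataracts.

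Capza1, an actin-capping subunit, was at 5.33 at 12 weeks and within 5.94 to 5.995 in the 4 others, and Atg5, needed to form autophagosomes, was at 4.38 against 4.99 to 5.10. Pick1, a PDZ-domain scaffold protein, was at 4.42 against 5.11 to 5.58, with 5.11 on 4 other arrays. Rps28-ps3, named as a ribosomal pseudogene, was at 4.05 against 4.65 to 5.08. Evi2a was just inside the threshold, at -0.585, and Ppfia1 just outside it, at a distance of 0.56 in size.

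All 17 genes were below both lenses without cataracts, 15 of them by 1.5-fold or more. These 17 too were picked by their 12-week values, so their limma p-values are no separate support. At 12 weeks 15 of the 17 were under a signal of 5, the level of the filter, and these 15 passed the filter on other arrays. Identical values among the 4 other lenses occurred in 6 of the 17, in 2 of the 8 genes above, and in 25.9% of all tested genes. Without the 10-week lens 29 genes were below the range by 1.5-fold and without the 14-week lens 31, against 17 with all 4.

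**Figure D4:**
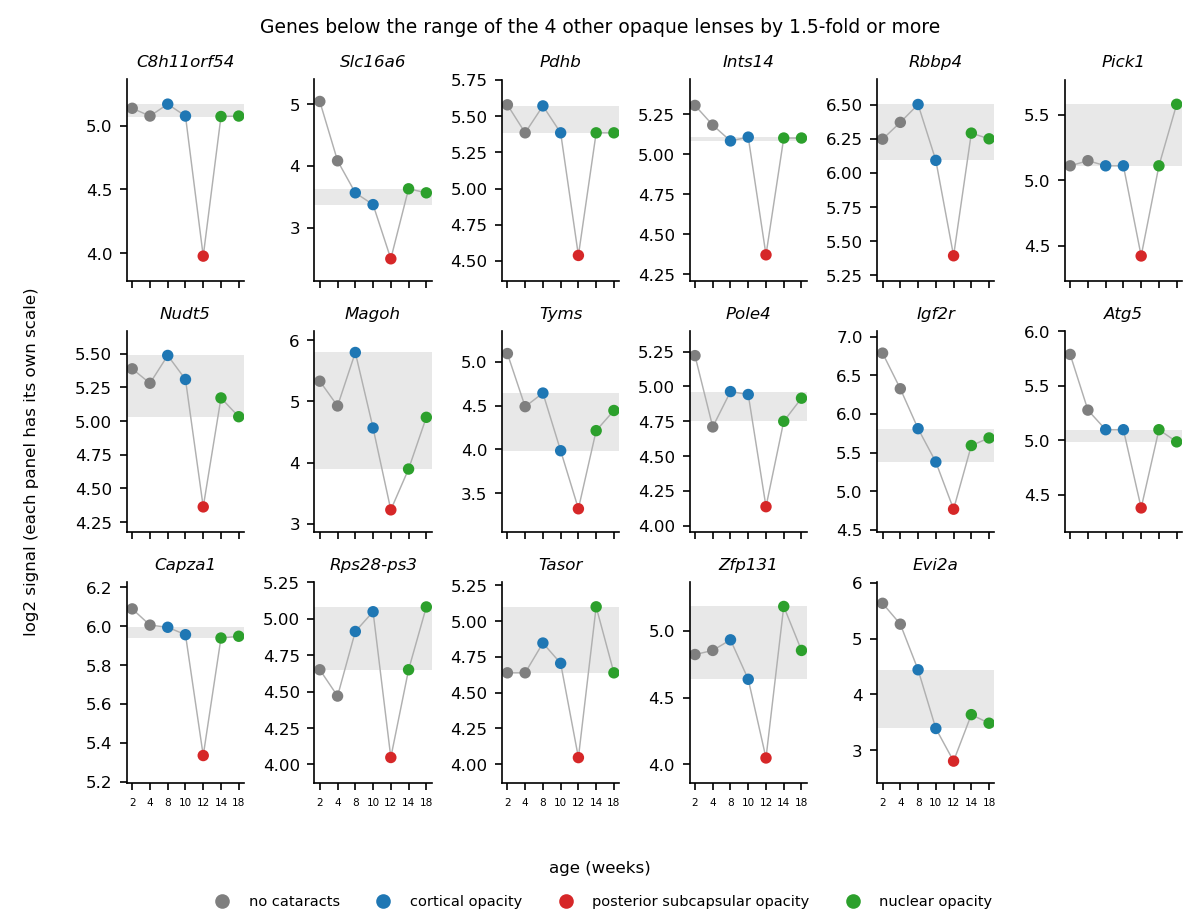
Log2 signal (vertical axis, scaled per panel) of the 17 genes below the range by 1.5-fold or more at each age in weeks (horizontal axis), 1 array per point, coloured by the labelled stage, with the range of the 4 other opaque lenses in grey. The 12-week point is the lowest of the 7 in every panel, and in several panels the other points share the same value.

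Beyond single genes, subunits of 4 large complexes were counted against the share of all genes below the range. That share was 29.7% of tested genes and, with dim genes kept, 18.5% of all named genes. The proteasome, which degrades ubiquitin-tagged proteins, had the highest share of these 4. Of its 36 named subunits 22 were below the range at 12 weeks (61.1%, against 18.5% of all named genes) and 2 above. Of the 31 tested 21 were below (67.7%, against 29.7%) and 0 above, with a median difference of -0.22 against -0.07 over all tested genes. No tested subunit was below by 1.5-fold. After quantile normalization 12 of 31 were below and 2 above, with a median of -0.15 against -0.01 over all genes, beside the 22.0% of all genes below under that scaling.

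Psma5, of the core ring, was at 5.08, 5.005, 4.88 and 5.005 at 8, 10, 14 and 18 weeks and at 4.38 at 12 weeks, a distance of -0.50. Psmc4, an ATPase of the cap, was at 6.73, 6.72, 6.73 and 6.64 and at 6.16 at 12 weeks, with 7.39 and 6.98 in the lenses without cataracts. Both were chosen after their values were seen, and most other subunits differed by less. The median of the 31 was 7.07, 6.83, 6.64, 6.73 and 6.89 at 8, 10, 12, 14 and 18 weeks, so the 14-week lens was close to the 12-week lens. Over all 36 subunits the 12-week lens was the lowest of the 5 for 22 and the 14-week lens for 10.

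Mitochondrial ribosomal proteins, which build the ribosome that translates the mitochondrial genome, had a like pattern. Of 71 named, 32 were below the range (45.1%, against 18.5% of all named genes) and 4 above. Of 45 tested 21 were below (46.7%, against 29.7% of all tested genes) and 2 above, with a median difference of -0.19. Quantile normalization left 19 below and 3 above (median -0.14). Mrps30 was at 5.15 at 12 weeks against 5.55 to 5.79, and Mrpl13 at 5.22 against 5.49 to 5.99. The dim Mrps33 was the only member below by 1.5-fold, at 3.35 against 3.97 to 4.88.

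The respiratory chain was closer to the background. Of 68 tested subunits 20 were below the range (29.4%) and 3 above, with a median difference of -0.13, and after quantile normalization 13 were below and 10 above (median -0.06). Ndufb3 and Ndufb7, accessory subunits of complex I, were at 6.71 against 7.14 to 7.38 and at 5.27 against 5.66 to 5.92, and Ndufs5 was at 6.06 against 5.08 to 5.92. Cytosolic ribosomal proteins, whose many gene copies share probe sequence, had 33 of 88 tested below (37.5%) and 3 above, with a median of -0.11. After quantile normalization 22 of the 88 were below and 7 above (median -0.06), near the 22.0% of all genes below under that scaling.

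**Figure D5:**
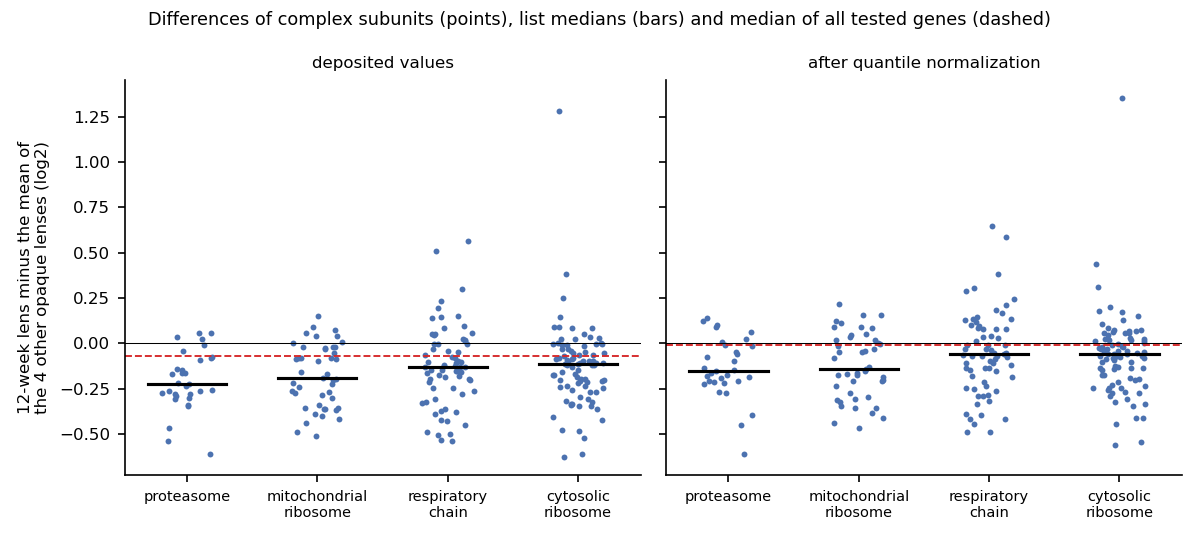
The 12-week log2 signal minus the mean of the 4 other opaque lenses for each tested subunit of 4 complexes (points, spread sideways at random), with the list median (black bar) and the median of all tested genes (red dashed line), on the deposited values (left) and after quantile normalization (right). The proteasome and mitochondrial ribosome medians lie below the dashed line in both panels, and the other 2 lie nearer to it.

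Lists of stress responses were counted against the same backgrounds, 29.7% of tested genes below the range on the deposited values and 22.0% after quantile normalization. Of 16 tested genes of the unfolded protein response 7 were below the range (43.8%) and 0 above, with a median of -0.12, but after quantile normalization 4 were below and 1 above, near the background. The chaperones of the endoplasmic reticulum Hsp90b1 (6.60 against 6.86 to 7.01) and Calr (8.05 against 8.29 to 8.73) were among those below. Heat shock chaperones had 5 of 16 below (31.2%) and 1 above, and 2 of 16 below after quantile normalization, so neither count stood out from all genes. Antioxidant and glutathione genes had 8 of 26 below (30.8%) and 2 above, near the background, with Txnip and Gclc, the catalytic subunit of the enzyme that limits glutathione synthesis (6.91 against 5.97 to 6.59), above and Prdx3, the mitochondrial peroxiredoxin (5.43 against 5.75 to 5.95), below.

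The lens's own genes were counted against the 64.0% of all tested genes that lay inside the range. Of 12 tested crystallin list members, which include the main structural proteins of fibres, 11 were inside the range and 1 above it, with a median difference of 0.04. Cryab, the stress-responsive small heat shock crystallin, was at 13.22 at 12 weeks and at 13.22 to 13.28 in the 4 others. Of 20 lens fibre genes 16 were inside, and of 24 tested lens epithelium genes 19 were inside, 3 above (12.5%) and 2 below (8.33%). The epithelium count moved with the scale, and 8 of 24 were above and 2 below after quantile normalization and after median centring, against 16.8% and 20.5% of all genes above. Foxe3, a transcription factor of the lens epithelium, was at 6.83 at 12 weeks against 6.32 to 6.58, close to the 6.76 at 2 weeks.

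Epithelial cells that move to the rear of the lens and change towards a mesenchymal state are a known feature of some posterior opacities, so those lists were read too. Of 15 tested mesenchymal transition and fibrosis genes 13 were inside the range, 2 below (13.3%) and 0 above, with a median of -0.06. Of all tested genes 29.7% were below and only 6.25% above, so a count of 0 above among 15 says little. With dim genes kept, 3 of 27 were above (11.1%) and 4 below (14.8%), against 18.0% and 18.5% of all named genes. After quantile normalization or median centring 1 of the 15 was below and 0 above, with a median of 0.02, against 16.8% and 20.5% of all genes above. Zeb2, a repressor of epithelial genes, was below (6.47 against 6.80 to 6.99), and Snai1 was above (3.12 against 2.67 to 2.73) at a level too dim to test. Of 12 tested genes of the capsule's basement membrane 9 were inside and 3 below (25%, against 29.7% of all tested genes), the laminin genes Lama1 and Lamc1 among them. The direction turned with the scale, with 4 above and 2 below after quantile normalization and 6 above and 2 below after median centring.

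Markers of other eye tissues were set beside these results. The sum of 9 lens markers, on the linear scale, was 34275 at 12 weeks within 33275 to 36828 in the 4 other opaque lenses. Markers of ciliary body (768 within 595 to 941), photoreceptors, immune cells, blood cells, neurons and glia, fibroblasts and corneal epithelium were inside the range. Pigment cell markers were below it (281 against 307 to 331), and those of retinal pigment epithelium (46.9 against 38.3 to 43.8), endothelium (69.0 against 62.3 to 68.8) and muscle (113 against 86.9 to 107) were above it by small amounts. These moves came from 4 of 11 pigment cell markers below their own range (36.4%), against 18.5% of all named genes. Above their own range were 3 of 6 retinal pigment epithelium (50%), 2 of 9 endothelium (22.2%) and 5 of 8 muscle markers (62.5%). Among all named genes 18.0% were above. Of the 8 muscle markers 7 were too dim to test. No marker of retinal pigment epithelium, photoreceptors, immune cells, blood cells or endothelium reached a signal of 5. The part of any such tissue in the gene differences above was not tested.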

How the data were processed

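The authors hybridised total RNA of whole lens to arrays of the type GeneChip Rat Gene 2.0 ST and normalized the arrays with the Robust Multi-array Average algorithm in R. The deposited values are log2 signals of 36685 probe clusters on 7 arrays, and no build of the array annotation is given in the sources used here. Clusters with 1 symbol in the platform annotation (18511) were kept, 575 had several symbols and 17599 none. Symbols were updated through Entrez identifiers to RefSeq GRCr8 (18394 found, 117 kept as on the array), and the cluster of highest mean stood for each of 18166 genes. Genes under a log2 signal of 5 on every array, the study's own filter, were left out (12998), and arrays carry no read depth, so their number limits the precision. The 12-week array was set against the range of the 4 other opaque arrays, and limma 3.58.1 (R 4.3.3) fitted stage means over 7 arrays with Benjamini-Hochberg adjustment. The fit was tested on simulated data. A stage's arrays differ in age, so its spread includes age. Named genes were the 15 farthest outside the range in each direction, list members outside it by 1.5-fold or more and the immediate early and calcineurin lists; others are named as examples chosen after their values were seen. The genes and lists were chosen with earlier results of these data known. Alternatives were another filter, all clusters of a gene, other scalings and other sets of arrays, and a filter without the 12-week array was added after seeing the data.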

Additional observations from a re-analysis of the deposited data

How the results depend on the processing

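No paired analysis was possible because the labels give no replicate numbers and only 1 array carries the posterior subcapsular stage. The limma counts were 0 higher and 0 lower under every alternative run, with a smallest adjusted p between 0.0543 (filter at a signal of 6) and 0.725 (without the 8-week array). A filter at a signal of 6 left 130 genes above the range, 838 below and 3 below by 1.5-fold, and with no filter 3261 were above, 3362 below, 163 above by 1.5-fold and 75 below by 1.5-fold. Quantile normalization gave 868 above, and median centring 1059 above, 1005 below and 6 below by 1.5-fold. With the 10- and 14-week arrays alone 921 were above and 13 above by 1.5-fold, and with all 6 other arrays 204 were above. At the larger fold that the study used for lower genes 2 genes were above and 0 below. A filter that left out the 12-week array, chosen after seeing the data, kept 5 of the 8 genes above by 1.5-fold. Leaving out 1 of the 4 arrays at a time gave 417 to 522 genes above, 1641 to 1931 below, 8 to 25 above by 1.5-fold and 18 to 31 below by 1.5-fold, with the upper ends of the last 2 ranges without the 14-week array. Of 257 recomputed gene distances over 43 named genes, 238 moved by less than 1 within-stage SD, 19 moved by more and 0 changed sign. Leaving out or adding arrays cannot turn the sign of a distance, so the sign was open only under quantile normalization. All 8 genes above and all 17 below stayed outside the range under every alternative in which they were present. Another filter or fewer of the 4 arrays could not bring a gene back inside the range. Only the other scalings, the mean of all clusters and the range of all 6 other arrays could have done so. The scale of a single array, dim signals and the absence of a second 12-week array limit all of these counts.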

Other observations

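Probe clusters without a single gene symbol stood outside every comparison above. Of 17599 clusters with no symbol, 2822 reached a signal of 5 on at least 1 array, and at 12 weeks 442 of these were above the range of the 4 other opaque lenses and 587 below. Among them 53 were above by 1.5-fold or more and 82 below, with the widest distances at 1.34 and -2.74. Of the 5168 tested named genes 8 were above by that margin (0.155%) and 17 below (0.329%). Some of the clusters above reached a signal of 5 on the 12-week array alone, so they were counted because they were high there. Some clusters had identical values on every array, so the counts are not of separate measurements. Of 575 clusters with several symbols, 182 reached that signal, 10 were above the range, 56 below and 0 beyond it by 1.5-fold in either direction.

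The 12-week difference from the mean of the 4 others depended on signal level. Its median over all named genes was 0.02 for genes with a mean log2 signal between 2 and 3, -0.06 between 5 and 6, and -0.09 between 6 and 7. After quantile normalization these medians were -0.03, -0.01 and -0.01.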
